A study of Saccharomyces cerevisiae with 6 samples.

Results

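The genes described here encode the proteins of the cytosolic small ribosomal subunit in budding yeast, named RPS. They were taken as every nuclear mRNA feature whose deposited name starts with RPS and a digit, with rows of the same name summed. That gave 52 rows under 43 names, of 5497 nuclear mRNA features. RPS27A, RPS29A, RPS29B and RPS31 were not analysed here.

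The small subunit binds the mRNA, holds the initiator tRNA and checks codon against anticodon, and each of its proteins is needed in about equal amounts to build it. Most yeast ribosomal proteins are encoded by a pair of genes, A and B, left from an ancient genome duplication. Their transcription is driven largely by Rap1 with Fhl1 and Ifh1 and follows growth rate and nutrient signals, so that slow growth on respired carbon sources is known to lower it.

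The RNA came from isolated mitochondria of CEN.PK113-7D, a laboratory strain of Saccharomyces cerevisiae. The ethanol group was 3 cultures in synthetic medium with ethanol-glycerol and the glucose group 3 cultures in synthetic medium with glucose, all harvested in mid-exponential phase. The study's design text calls them biological triplicates, and its aim was to compare mitochondrial transcriptomes on the 2 carbon sources. RNA was given poly(A) tails with an enzyme and read by Nanopore direct RNA sequencing.

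RPS mRNA is made in the nucleus, so its reads here come from RNA of outside the mitochondria that stayed with them. Whether that RNA was cytosolic or nuclear was not tested. How much RPS mRNA the cells held and how much of it came along with the mitochondria cannot be told apart, since no whole-cell RNA was used here. Cytosolic rRNA took 37.3% to 81.5% of the CPM of a library, and mitochondrial features took between 3.15% and 12.6%. Mitochondrial RNA was therefore present in every library, but as the smaller part of it. Without whole-cell RNA to compare, these shares do not show how far mitochondria were enriched.

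Depth was uneven. The ethanol libraries held 8284, 19087 and 63081 nuclear mRNA reads without ENO2, against 121147, 97474 and 107311 in the glucose libraries, as recovered from the steps of the CPM values. RPS reads numbered 274, 609 and 2475 in the ethanol libraries, against 6610, 5847 and 6127 in the glucose libraries. ENO2, an enolase gene whose transcript is also the control RNA supplied with direct RNA kits, took 4.94%, 49.9% and 21.9% of CPM in the ethanol libraries, against 6.81%, 3.63% and 2.63% in the glucose libraries. How many of these reads were cellular ENO2 mRNA was not tested. Values below are therefore shares of nuclear mRNA CPM without ENO2, given in percent for sums and as nCPM for single genes, that is CPM recomputed so that nuclear mRNA without ENO2 sums to 1000000 in each library. A single read was worth 121, 52.4 and 15.9 nCPM in ethanol replicates 1, 2 and 3, against 8.25, 10.3 and 9.32 in glucose replicates 1, 2 and 3. The part of this gap in depth in the results below was not tested.

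Similar paralogs can limit how far reads are assigned to 1 copy, which was not tested here. The coding sequences of the 22 RPS pairs are between 85.5% and 99.2% identical, with a median of 93.3%, in the R64 reference of strain S288C. The pair with the lowest identity, RPS7, and the pair with the highest, RPS6, show the range, here by the last 60 coding bases on the coding strand, 5′ to 3′, with the bases that differ within a pair in capitals (RPS7A chrXV:506708-506767 on the plus strand, RPS7B chrXIV:443398-443457, RPS6A chrXVI:377291-377350 and RPS6B chrII:591712-591771 on the minus strand, R64).
RPS7A: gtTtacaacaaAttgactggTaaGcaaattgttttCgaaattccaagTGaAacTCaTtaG
RPS7B: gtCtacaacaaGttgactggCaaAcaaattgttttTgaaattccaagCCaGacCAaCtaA
RPS6A: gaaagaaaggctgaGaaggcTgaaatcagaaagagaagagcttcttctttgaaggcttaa
RPS6B: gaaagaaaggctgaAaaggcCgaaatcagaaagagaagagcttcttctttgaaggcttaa
RPS7A and RPS7B differ at 12 of these 60 bases, and RPS6A and RPS6B at 2. As deposited, 9 names carry 2 rows each: RPS4B, RPS6B, RPS8B, RPS11B, RPS16B, RPS18B, RPS23B, RPS24B and RPS30B. By their neighbouring genes, these rows lie at the A and at the B copy of R64, so each of these names stands below for both copies together, and the other 34 names for 1 gene each.

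As a group the RPS genes took a smaller share of nuclear mRNA in the ethanol libraries. Their summed share was 3.31%, 3.19% and 3.92% in the ethanol libraries, against 5.46%, 6.0% and 5.71% in the glucose libraries. The groups did not overlap, and no 95% Wilson interval of an ethanol library reached one of a glucose library: the highest bound was 4.08% in ethanol and the lowest 5.33% in glucose (counting error only). The mean was 3.48% ± 0.393 in ethanol, against 5.72% ± 0.272 in glucose (SD, n = 3 each), a ratio of 0.607. Since the members were chosen with results known, the sum carries no p-value. Under deposited CPM, without any rescaling, the sums were 323, 2278 and 3686 in the ethanol libraries, against 7093, 5594 and 5605 in the glucose libraries.

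The large-subunit genes (RPL, with the RPP stalk proteins, 64 names), which make the other part of the ribosome, made up 4.83%, 4.66% and 4.93% in ethanol, against 8.36%, 9.28% and 8.90% in glucose, a ratio of means of 0.543. Within all ribosomal protein mRNA, the RPS part was 40.7%, 40.7% and 44.3% in the ethanol libraries, against 39.5%, 39.3% and 39.1% in the glucose libraries. The difference of 2.61 percentage points was 1.39 without ethanol replicate 3 and 1.80 without RPS22B, a gene that stood apart in that library. The groups did not overlap in either case, but the gap was small. The values of ethanol replicates 1 and 2 rest on 274 and 609 RPS reads. No interval was computed for this part, so whether the gap exceeds counting error was not tested.

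**Figure D1:**
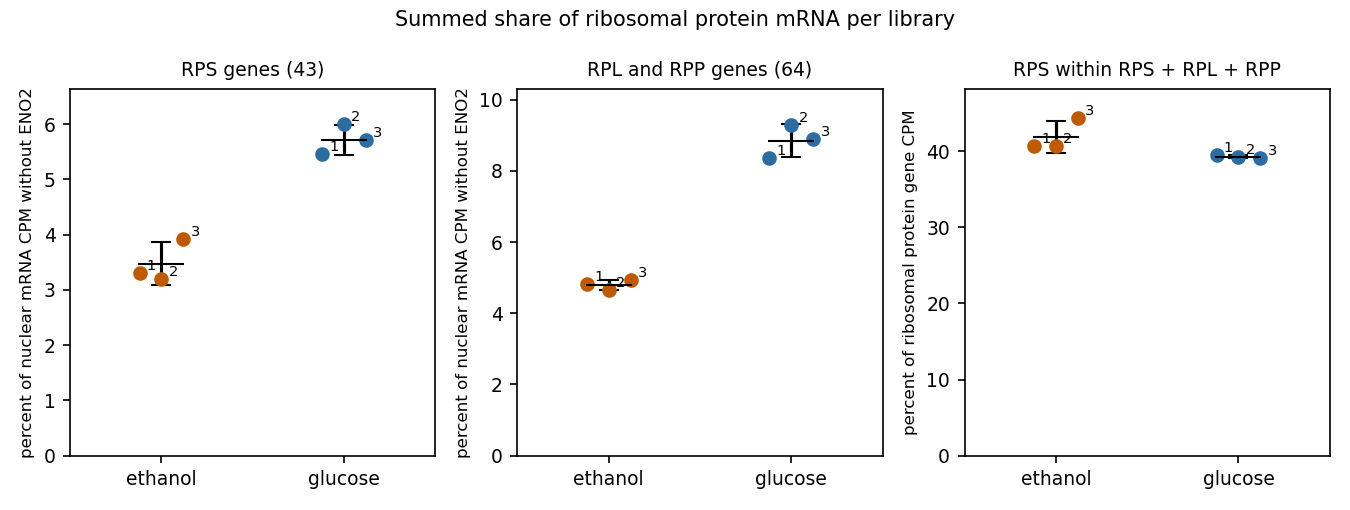
Summed share of nuclear mRNA CPM without ENO2 (percent) for the RPS genes and for the RPL and RPP genes, and the RPS percent of both together, in each library (points, numbered by replicate) with mean and SD (bars, n = 3). RPS shares lie between 3.19% and 3.92% in ethanol and between 5.46% and 6.0% in glucose.

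The lower share was spread over the members and not carried by a few. The median member stood at 0.514, 0.541 and 0.623 of its own glucose mean in ethanol replicates 1, 2 and 3. In each ethanol library 42 of the 43 members were below their glucose mean, a count that shares the same glucose libraries each time. Without the 3 most abundant names (RPS12, RPS8B and RPS4B) the summed share still differed by -1.88 percentage points, against -2.25 with them.

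**Figure D2:**
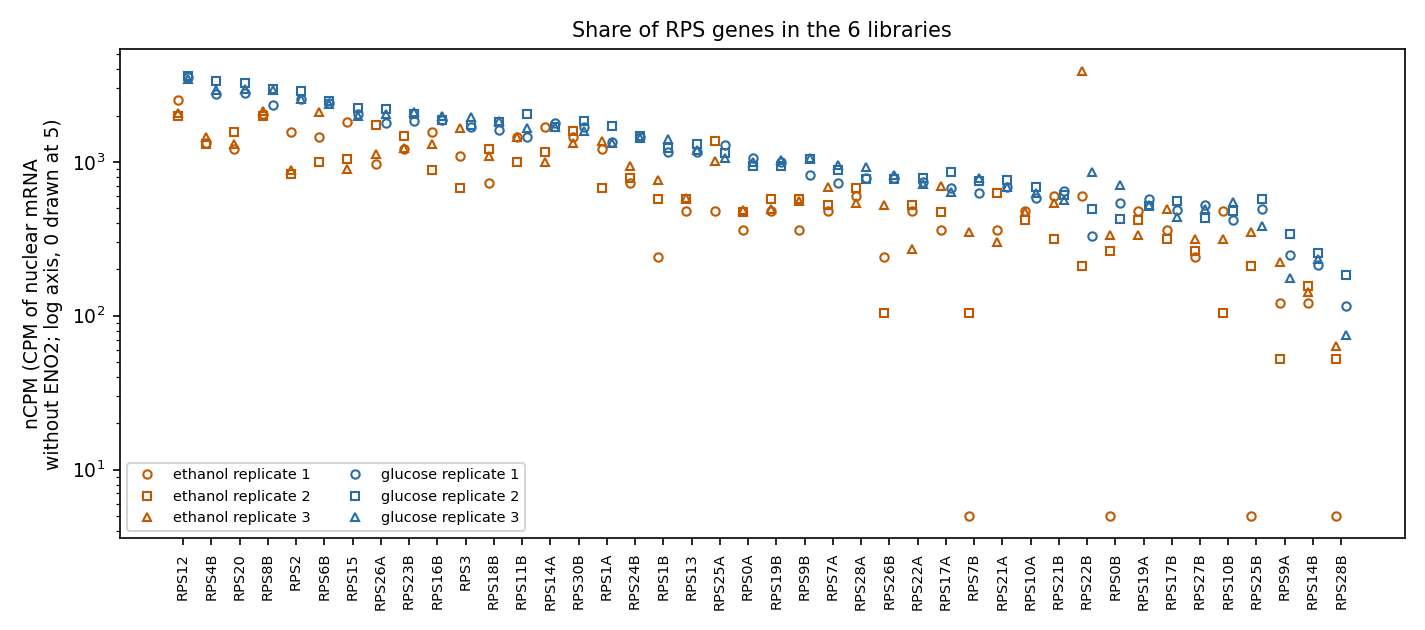
Share of 42 of the 43 RPS genes in nCPM (CPM of nuclear mRNA without ENO2, log axis, 0 drawn at 5) in the 3 ethanol and the 3 glucose libraries, ordered by glucose level. Most ethanol points lie under the glucose points of the same gene, and RPS22B in ethanol replicate 3, at 3868, lies far above the other 5 values of that gene.

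A limma fit on log2(nCPM + 100) was made over the 1030 nuclear mRNA features with a mean of at least 200 nCPM, and fold changes below are on that scale, as ethanol over glucose. Of the 43 members 40 were in the fit; RPS9A, RPS14B and RPS28B were too low. RPS0B, RPS7B and RPS25B averaged under 200 nCPM in ethanol and entered through their glucose level, so their fold changes were bound to be low and are no support for a difference. At a limma adjusted p under 0.05, 16 members, RPS7B included, were lower and 0 higher in ethanol, while 24 did not pass. At an unadjusted limma p under 0.05 the counts were 24 lower and 0 higher, beside 651 of the 1030 features in either direction. Over all features 54.0% passed, 26.8% as lower and 27.2% as higher. Fold changes were negative for 39 of the 40 members, beside 50.5% of all features, and all ethanol values lay below all glucose values for 30 of the 40, beside 33.4%.

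The median log2 fold change was -0.66 for the tested members and -0.022 for all features. At a filter of 500 nCPM the median of all features was -0.43, with 58.5% negative, beside -0.67 for the 33 members left. Among features that averaged at least 200 nCPM in both groups, a set chosen after seeing the data, 15 of 37 members and 157 of 574 features were called lower, with medians of -0.66 and -0.22. With no filter the median over all 43 members was -0.66 and 42 were negative. The median of all 5380 features was then -0.085, with 58.0% negative. In that fit 9 members and 701 of the 5380 features passed. Without glucose replicates 1, 2 or 3 the called members numbered 7, 7 and 6, and without ethanol replicate 3 they numbered 24. In the same fits 372, 339, 336 and 715 of the 1030 features were called. With ENO2 kept in the total 39 members were called lower, but the median of all features then moved to -1.0, and with deposited CPM 1 member was called and that median was -1.44. That setting and deposited CPM also turned the balance of all called features to 88 higher and 668 lower, and to 35 higher and 187 lower, against 280 higher and 276 lower here. All members called under any of these settings were lower in ethanol.

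**Figure D3:**
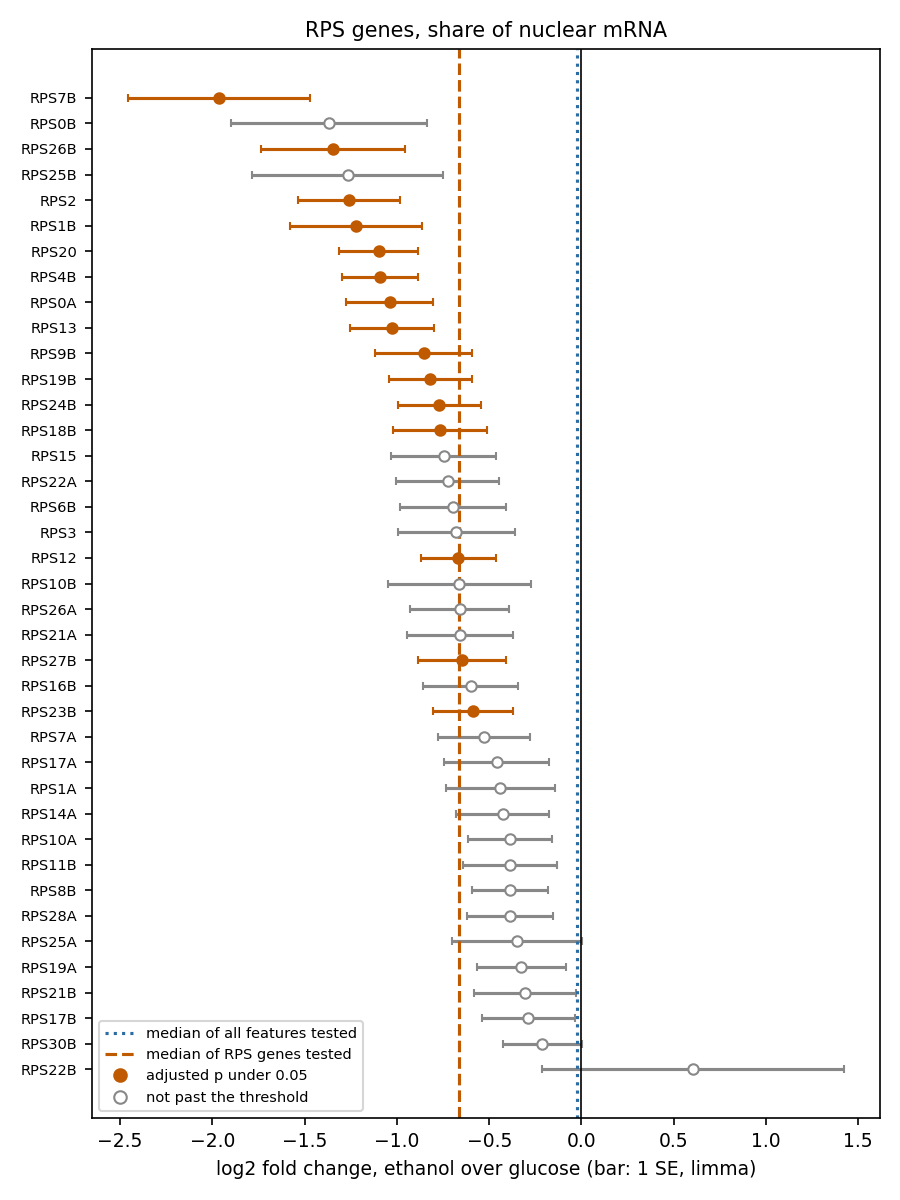
Limma log2 fold change, ethanol over glucose, of 39 of the 40 RPS genes tested (points; bars are 1 SE), with members past an adjusted p of 0.05 filled. Values run from -1.97 for RPS7B to 0.60 for RPS22B, the one positive value; the lines mark the medians of the RPS genes (-0.66) and of all features (-0.022).

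The genes for proteins along the mRNA path and at the decoding site include RPS2, RPS9B and RPS23B, which were called lower, and RPS3, which did not pass. These are not all the genes of that place, so they do not stand for it. RPS2 (uS5, at the mRNA entry and important for decoding accuracy) had 1569, 838 and 888 nCPM in ethanol, against 2551, 2903 and 2572 nCPM in glucose. The groups did not overlap, and RPS2 fell by 1.26 on the log2 scale (SE 0.28, limma adjusted p = 0.00684). It is a single-copy gene, so no paralog can share its reads.

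RPS3 (uS3), which lines the mRNA entry channel, had 1086, 681 and 1665 nCPM in ethanol, against 1692, 1724 and 1948 nCPM in glucose. Its groups were apart by a narrow margin, and its log2 fold change of -0.68 ± 0.32 did not pass (limma adjusted p = 0.0971). RPS23B, here both copies of the decoding-centre protein uS12, was called at -0.59 (limma adjusted p = 0.0473), close to the threshold, and lost that call in 9 of 18 other settings. RPS9B (uS4, at the mRNA entry) was called at -0.86 (limma adjusted p = 0.0248). Its copy RPS9A, not in the fit, had 1, 1 and 14 reads in ethanol, against 30, 33 and 19 in glucose.

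At the mRNA exit, RPS26B and RPS1B were called lower. RPS26B (eS26, which contacts the mRNA upstream of the start codon) had 241, 105 and 523 nCPM in ethanol, against 784, 779.7 and 820.0 nCPM in glucose (log2 fold change -1.35, SE 0.39, limma adjusted p = 0.0203). The first 2 of these ethanol values rest on 2 reads each. RPS1B (eS1, on the platform) had 241, 576 and 761 nCPM in ethanol, against 1164, 1231 and 1398 nCPM in glucose (log2 fold change -1.22, SE 0.36, limma adjusted p = 0.0205). Their A copies did not pass: RPS26A was at -0.66 (limma adjusted p = 0.0647) and RPS1A at -0.44 (limma adjusted p = 0.229). A call on the B copy alone does not show that the copies differ.

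RPS28A, the main copy of eS28, and RPS14A, the main copy of uS11, also lie at the exit side. RPS28A had 604, 681 and 539 nCPM in ethanol, against 780.0, 769 and 923 nCPM in glucose, and its log2 fold change of -0.39 ± 0.23 did not pass (limma adjusted p = 0.186). RPS14A was at -0.43 with overlapping groups.

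In the head and beak, RPS20 and RPS12 combine high abundance with a called difference. RPS20 (uS10, next to uS3) had 1207, 1572 and 1299.9 nCPM in ethanol, against 2815, 3252 and 2973 nCPM in glucose. All its ethanol values were under all its glucose values, and RPS20 fell by 1.10 on the log2 scale (SE 0.22, limma adjusted p = 0.00422). RPS12 (eS12, in the beak) had 2535, 1991 and 2093 nCPM in ethanol, against 3541, 3632 and 3457 nCPM in glucose. RPS12 fell by 0.67 on the log2 scale (SE 0.20, limma adjusted p = 0.0234), a smaller difference with tight groups.

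RPS15 (uS19, in the head near the A site) had 1811, 1048 and 904 nCPM in ethanol, against 2047, 2226 and 1985 nCPM in glucose. Its groups were apart, but its ethanol values spread widely, and -0.75 ± 0.29 did not pass (limma adjusted p = 0.0540). RPS18B (both copies of uS13, which bridges to the large subunit) was called at -0.77 (limma adjusted p = 0.0329). RPS19B (eS19, needed for pre-rRNA maturation, with a human relative mutated in Diamond-Blackfan anaemia) was called at -0.82 (limma adjusted p = 0.0170), and its copy RPS19A stood at -0.33 (limma adjusted p = 0.268). RPS25B (eS25, which viral IRES elements need) had 0, 4 and 22 reads in ethanol, and its -1.27 ± 0.52 did not pass (limma adjusted p = 0.0662).

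In the body, RPS7B (eS7, a target of the ubiquitin ligase Not4) had 0, 105 and 349 nCPM in ethanol, against 631, 749 and 783 nCPM in glucose. Its groups were apart, and its fitted log2 fold change was -1.97 ± 0.49 (limma adjusted p = 0.0116), for a gene that entered the fit through glucose. The ethanol values rest on 0, 2 and 22 reads, and a count of 0 in ethanol replicate 1 allows up to 362 nCPM. Its copy RPS7A had 483, 524 and 682 nCPM in ethanol, against 726, 882 and 951 nCPM in glucose, which was -0.53 (limma adjusted p = 0.0974).

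RPS4B (both copies of eS4) had 1328, 1309.8 and 1443 nCPM in ethanol, against 2782, 3334 and 2926 nCPM in glucose. It fell by 1.09 on the log2 scale (SE 0.21, limma adjusted p = 0.00372), with ethanol values that lay close together. RPS13 (uS15, a single-copy protein that contacts the large subunit) had 483, 576 and 587 nCPM in ethanol, against 1156, 1313 and 1193 nCPM in glucose, and fell by 1.03 (SE 0.23, limma adjusted p = 0.00688). RPS0A (uS2, needed for pre-rRNA maturation) had 362, 472 and 484 nCPM in ethanol, against 1065, 944 and 1002 nCPM in glucose, and fell by 1.04 (SE 0.23, limma adjusted p = 0.00757). RPS0B stood at -1.37 ± 0.53 and did not pass (limma adjusted p = 0.0561).

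RPS24B, both copies of eS24, was called at -0.77 (limma adjusted p = 0.0202). RPS27B (eS27, with a zinc finger) was called at -0.65 (limma adjusted p = 0.0468) and lost that call in 12 of 17 other settings. RPS2, RPS20, RPS4B, RPS0A and RPS13 each lost theirs in 1 of 18. RPS1B lost its call in 4 of 18 other settings, RPS26B in 5, RPS9B, RPS12, RPS19B and RPS24B in 6, and RPS18B in 7. The members with the smallest differences were RPS19A, RPS21B at -0.30, RPS17B at -0.29 and RPS30B at -0.21, with limma adjusted p between 0.268 and 0.414. For a simulated 2-fold change in libraries of these depths the fit recovered 29.4% of features, and for a 4-fold change 98.5%. The simulation had the same variation between libraries in both groups, so its rates need not hold for these data. A member that did not pass is not shown to be equal between the groups.

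RPS22B was the only member above its glucose level in the fit, and its value rests on 1 library. RPS22B (uS8, in the body) had 604, 209.6 and 3868 nCPM in ethanol, against 330.2, 498 and 857 nCPM in glucose, from 5, 4 and 244 reads in ethanol, against 40, 48.5 and 92 reads in glucose. Ethanol replicate 3 was far above the others, the groups overlapped, and the log2 fold change of 0.60 ± 0.82 did not pass (limma adjusted p = 0.547). Without ethanol replicate 3 it was -0.43, and with library weights -0.091. RPS22B made up 9.86% of RPS CPM in that library, against 0.605% to 1.82% in the others.

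The RPS22B feature is 1533 bases long (chromosome 12, 815320 to 816852, plus strand, of the CEN.PK113-7D assembly of the tables), against a coding span of 876 bases in R64. In R64 its intron, chrXII:856575-857057, holds the box H/ACA snoRNA SNR44 at chrXII:856710-856920. Whether the reads of ethanol replicate 3 lie in the snoRNA, in the intron or in the mRNA needs the alignments and was not tested. Of 7 other genes that carry a snoRNA in an intron, chosen after the RPS22B value was seen, NOG2 stood at 1.79 times its glucose mean in ethanol replicate 3 and the other 6 between 0.178 and 0.661 times. Against the mean of ethanol replicates 1 and 2, ethanol replicate 3 stood at 9.51 times for RPS22B, 7.87 times for RPL7B and 7.06 times for TEF4. RPS22A, its intronless copy, had 483, 524 and 269 nCPM in ethanol, against 735, 790.0 and 718 nCPM in glucose, which was -0.73 on the log2 scale (limma adjusted p = 0.0540).

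Ranked by the mean over the 6 libraries per kb of feature length, RPS12 had 6655 and RPS20 5974 nCPM per kb. RPS12 averaged 5107 ± 669.9 nCPM per kb in ethanol, against 8202 ± 202 in glucose, and RPS20 averaged 3715 ± 518 in ethanol, against 8233 ± 605 in glucose (SD, n = 3 each), so in glucose the 2 did not differ beyond their spread. RPS26A followed with 4572, RPS15 with 3893, RPS28A with 3510 and RPS25A with 3227 nCPM per kb. These features are of coding length without introns, while many other RPS features span an intron and flanking sequence, which lowers their value per kb. RPS25A had 483, 1362 and 1015 nCPM in ethanol, against 1279, 1139 and 1053 nCPM in glucose, so its groups overlapped, and its log2 fold change of -0.35 turned to 0.026 without ethanol replicate 1. RPS26A had 966, 1729 and 1126 nCPM in ethanol, against 1799, 2216 and 2041 nCPM in glucose, which did not.

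The single-copy genes, among them RPS2, RPS12, RPS13 and RPS20, made up 28.1%, 24.3% and 21.8% of RPS CPM in the ethanol libraries, against 30.5%, 30.1% and 28.9% in the glucose libraries. The groups did not overlap, although ethanol replicate 1 came close to glucose replicate 3. RPS22B, at 9.86% of RPS CPM in ethanol replicate 3, is part of the sum and lowers the value of that library. RPS2, RPS12, RPS13 and RPS20 were called lower, while RPS3 and RPS15 had groups that were apart without passing.

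For the A and B copies, the share of A in A plus B reads was compared over libraries. Of the 13 pairs with separate names, A exceeded B in the glucose mean in 11 and in the ethanol mean in 9. Summed over these pairs, the A copies held 69.8%, 71.9% and 49.2% in ethanol, against 61.7%, 61.5% and 58.1% in glucose, so the groups overlapped. RPS22B in ethanol replicate 3 is part of the low value there. Over all 22 pairs, with rows told apart by their neighbours, the A copies held 65.1%, 64.3% and 54.0% in ethanol, against 59.4%, 59.8% and 57.2% in glucose, again with overlap.

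In 3 of the 13 pairs the A shares of the groups did not overlap, or 23.1%. Over all 35 A and B pairs of nuclear mRNA by name the figure was 25.7%. These 35 are the 13 RPS pairs themselves, 21 RPL and RPP pairs and NHP6. They therefore do not give a rate for nuclear paralogs in general. Over the 22 pairs other than RPS the figure was 27.3%. The RPS count is near this background of mostly ribosomal protein genes. It was 7 without ethanol replicate 2 and 5 without ethanol replicate 3. The background was not recounted with a library left out, and smaller groups are apart more readily, so these 2 counts cannot be set against it. Of the 3 pairs with at least 10 reads in every library, 0 were apart. RPS7A was 100%, 83.3% and 66.2% of its pair in ethanol, against 53.5%, 54.1% and 54.8% in glucose, the widest gap. The Wilson interval of the RPS7A share was 51.0% to 100% in ethanol replicate 1, from 4 reads, 55.2% to 95.3% in ethanol replicate 2, from 12 reads, and 54.0% to 76.5% in ethanol replicate 3, from 65 reads, and it began near the glucose values in each. RPS25A was 100%, 86.7% and 74.4% of its pair in ethanol, against 72.1%, 66.5% and 73.4% in glucose. Its ethanol intervals were 51.0% to 100%, from 4 reads, 70.3% to 94.7% and 64.3% to 82.5%. RPS19A was 50%, 42.1% and 40.4% of its pair in ethanol, against 36.6%, 35.5% and 33.7% in glucose. The 50% came from 4 reads of each copy, and its ethanol intervals were 21.5% to 78.5%, 23.1% to 63.7% and 28.2% to 53.9%. For RPS25A and RPS19A each ethanol interval held a glucose value.

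Each of these 3 pairs had a two-sided exact permutation p of 0.1, the smallest that 3 against 3 libraries allow, and 0.433 after Benjamini-Hochberg adjustment over the 13 pairs. No pair could therefore pass. RPS1A averaged 67.2% ± 14.8 of its pair in ethanol, against 53.5% ± 4.58 in glucose (SD, n = 3 each), with overlap. RPS0A averaged 74.5% ± 22.2 in ethanol, against 64.7% ± 5.40 in glucose, and RPS22A 40.8% ± 32.6 in ethanol, against 58.6% ± 11.9 in glucose, both with overlap (SD, n = 3 each).

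In other pairs 1 copy held most of the reads under both carbon sources, although ethanol reads were few. RPS14A was 93.3%, 88.0% and 87.5% of its pair in ethanol, against 89.3%, 86.8% and 87.8% in glucose. RPS14B, the minor copy, is known to be repressed by its own protein through its pre-mRNA. RPS9A was the minor copy, at 25%, 8.33% and 28.6% in ethanol, against 23.3%, 24.6% and 14.3% in glucose. Its ethanol shares came from 1 A and 3 B reads, 1 and 11, and 14 and 35. The Wilson interval in ethanol replicate 1 was 4.56% to 69.9%, which does not settle the minor copy there. RPS28A was 100%, 92.9% and 89.5% of its pair in ethanol, against 87.1%, 80.6% and 92.5% in glucose. The ethanol shares came from 5 A and 0 B reads, 13 and 1, and 34 and 4. The minor copy RPS28B is known to set its own mRNA decay through Edc3.

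With the 9 shared names told apart by place, a reading chosen after seeing the data, RPS18 and RPS6 also had A shares without overlap. RPS18A was 83.3%, 65.2% and 59.4% of its pair in ethanol, against 45.5%, 51.1% and 43.4% in glucose. Ethanol replicate 1 had 5 A reads and 1 B read. The ethanol Wilson intervals were 43.6% to 97.0%, 44.9% to 81.2% and 47.6% to 70.2%, and each held a glucose value. RPS6A was 25%, 26.3% and 48.5% in ethanol, against 51.9%, 50.6% and 49.2% in glucose, the opposite direction. Its ethanol reads were 3 A and 9 B, 5 A and 14 B, and 65 A and 69 B. The ethanol Wilson intervals were 8.89% to 53.2%, 11.8% to 48.8% and 40.2% to 56.9%. The last coding bases of RPS6A and RPS6B printed above are near-identical, and sequence after the stop codon was not compared. How well reads of that pair were told apart was not tested, so its split is uncertain.

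**Figure D4:**
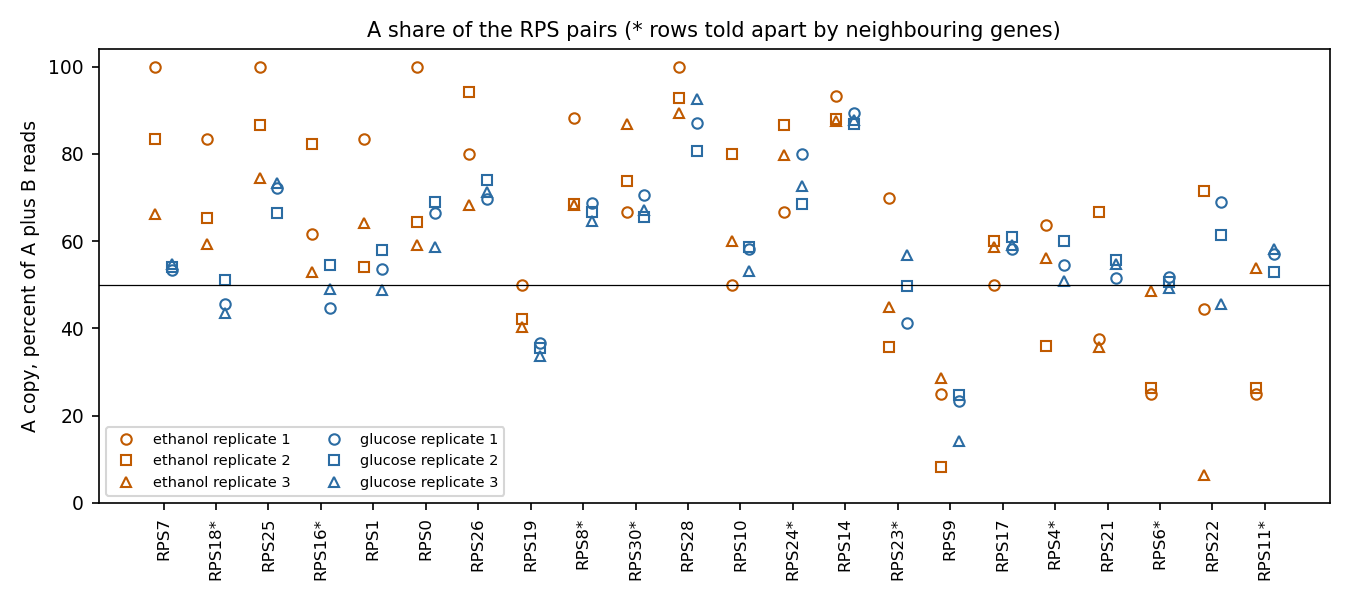
Share of the A copy in A plus B reads (percent) for the 22 RPS pairs in the 3 ethanol and the 3 glucose libraries, ordered by the difference in group means; pairs marked * carry 1 deposited name. Ethanol points scatter more widely than glucose points, and RPS7, RPS25 and RPS19 show higher A shares in ethanol without overlap.

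What the members share upstream was looked up in R64, in the 300 bases from 450 to 151 before each start codon. The motif ACCCNNACA, a core of the Rap1 site, was searched on both strands. It lay in 14 of 52 RPS windows (26.9%), in 33 of 82 windows of RPL and RPP genes (40.2%) and in 176 of 5872 windows of all other protein-coding genes (3.00%). The 5 windows printed here, of the members with a match and the highest level per kb, include members called lower (RPS2 and RPS13) and members not called (RPS1A, RPS10A and RPS21B), with the motif in capitals and 41 bases 5′ to 3′ on the coding strand (RPS2 chrVII:277214-277254 plus, RPS13 chrIV:579213-579253 plus, RPS1A chrXII:1019128-1019168 minus, RPS10A chrXV:866743-866783 plus and RPS21B chrX:157590-157630 minus, R64).
RPS2: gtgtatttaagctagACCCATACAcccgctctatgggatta
RPS13: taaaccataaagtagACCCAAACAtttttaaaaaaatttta
RPS1A: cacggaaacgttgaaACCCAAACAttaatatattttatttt
RPS10A: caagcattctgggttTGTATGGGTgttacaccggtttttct
RPS21B: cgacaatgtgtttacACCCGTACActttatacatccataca
In RPS10A the match is on the other strand, so the capitals read as its reverse complement. Among members with 1 row, the 8 with the motif had a median log2 fold change of -0.41 and the 23 tested members without it -0.73. Those with a coding intron had a median of -0.65 (17 members) and those without one -0.74 (14 members). These medians are descriptions of small sets with no test.

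The genes that work with the family were read from 4 lists. Of the 64 RPL and RPP names 62 were tested, of which 42 were called lower and 0 higher, beside 26.8% and 27.2% of all features, with a median log2 fold change of -0.84. Of the 42, 4 averaged under 200 nCPM in ethanol; among the 58 over that level in both groups 38 were called lower. RPL13A, one of those 4, had 0, 157 and 285 nCPM in ethanol, against 759, 698 and 839 nCPM in glucose (log2 fold change -2.01, limma adjusted p = 0.00819). Of 17 factors that act on the small subunit 12 were tested; 7 were called lower and 1 higher. Of these, 5 averaged under 200 nCPM in ethanol and the higher one in glucose, so that they entered through 1 group and the counts are no support for a difference. Among the 4 over that level in both groups, 2 were called lower and 0 higher, with a median of -0.92. Those that entered through glucose include TIF35, an eIF3 subunit that helps load mRNA, with 0, 52.4 and 127 nCPM in ethanol, against 322, 410.4 and 326 nCPM in glucose (log2 fold change -1.58, limma adjusted p = 0.0113). The gene called higher was TMA17, named after its value was seen, which encodes a ribosome-associated protein that also helps proteasome assembly, with 483, 524 and 269 nCPM in ethanol, against 90.8, 149 and 37.3 nCPM in glucose (log2 fold change 1.46, limma adjusted p = 0.0104). The nucleolar methyltransferase gene NOP1 was the single member tested of 20 assembly factors and chaperones, with 121, 0 and 31.7 nCPM in ethanol, against 396, 472 and 578 nCPM in glucose, and it too entered through its glucose level, so its fold change does not stand for the list. Of 11 genes listed as regulators of ribosome production, DOT6 alone reached the level needed for the fit, through its ethanol libraries. It did not pass, at 0.50 (limma adjusted p = 0.237), so the regulators' own mRNA could not be compared at this depth.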

How the data were processed

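Mitochondria were prepared from spheroplasts by differential centrifugation, and their RNA was tailed enzymatically and sequenced with the SQK-RNA002 kit, per the labels' protocols. The submitters' processing notes name STAR 2.5.4a, SAMtools, featureCounts and edgeR, without their roles. CPM values per feature of a CEN.PK113-7D assembly were deposited for 3 replicates of each carbon source, and each library sums to 1000000 CPM. Between 89.1% and 94.9% of the values in a library were whole reads within a tolerance of 0.001 read, so reads were partly split, no count test was the main result, and read numbers are estimates.

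Rows sharing a name were summed, CPM were rescaled to nCPM (nuclear mRNA without ENO2 summing to 1000000), and limma 3.58.1 (lmFit, eBayes with trend, R 4.3.3) was fitted to log2(nCPM + 100) over 1030 features with Benjamini-Hochberg adjustment and no covariates. A shares were compared with exact permutation tests (scipy 1.17.1). The fit was tested on simulated data, where 2.58% of calls were false. These data had the depths of the real libraries, the mean glucose profile and the same dispersion of 0.05 for every feature and library. Changed features swapped levels in pairs, so that the total stayed the same. The real ethanol libraries may vary more, so the simulated rates need not hold for them. Intervals and the floor of 3 reads cover counting error only. No value column was without a sample.

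The members and lists were chosen with earlier results of these data known. The named genes are those called, the 5 highest and 5 lowest fold changes, the 6 highest per kb, the single-copy genes, the 5 pairs with the largest difference in A share and the leading gene of each list, except 1 gene that is not reported here; RPS9A, RPS14A, RPS28B, RPS6A, RPS18A, RPS10A, TMA17 and the snoRNA host NOG2 were added after their values were seen. Sequences and motifs come from the R64 assembly at its own annotation, which is a different strain from that of the tables, and positions were not converted. Alternatives were other pseudocounts, filters, scalings, variance models, voom on rounded reads, a replicate block and leaving out each library.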

Additional observations from a re-analysis of the deposited data

How the results depend on the processing

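Across 18 alternatives no RPS gene was called higher in ethanol. Called features, 556 here, numbered 270 at a filter of 500 nCPM (113 higher, 157 lower), 222 with deposited CPM (35 higher, 187 lower) and 238 among features over 200 nCPM in both groups (81 higher, 157 lower), and between 336 and 715 with 1 library left out. Called RPS genes, 16 here, numbered 9 without a filter, 1 with deposited CPM and 39 with ENO2 kept. They numbered 25 with each library centred on its median, and between 6 and 24 with 1 library left out. Called features numbered 701 of 5380 without a filter, 756 of 1030 with ENO2 kept and 572 of 1030 after centring. The RPS median of -0.66 was -0.50 with a pseudocount of 500, -2.07 with deposited CPM, -2.04 with ENO2 kept and -0.84 after centring, where the median of all features stood at 0.020, -1.44, -1.0 and -0.19; with 1 library left out it lay between -0.71 and -0.65. The difference in summed share, -2.25 percentage points, was -3.43 with ENO2 kept and -1.88 without the 3 most abundant members, and between -2.47 and -2.11 with 1 library left out. The RPS part of all ribosomal protein mRNA differed by 1.39 to 3.23 points, the single-copy part by -6.80 to -3.65 points and the summed A share by -0.94 to 10.4 points with 1 library left out; the last was 8.36 without RPS22B.

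Pairs whose A share did not overlap, 3 of 13 here, were 0 of 3 with at least 10 reads in every library and 5 of 22 by place. With 1 library left out they were between 3 and 7, a setting in which the other A and B pairs were not recounted. RPS22B turned to -0.71 with deposited CPM, -0.61 with ENO2 kept, -0.091 with library weights and -0.43 without ethanol replicate 3, and lay between -0.43 and 1.41 with 1 library left out. RPS25A turned to 0.026 without ethanol replicate 1 and lay between -0.64 and 0.026 with 1 library left out. The cause of these changes was not tested, apart from the smaller number of features or libraries where the setting itself removes them. Same-numbered libraries did not deviate together (r = -0.0175, -0.0571 and 0.0768), so the numbers were not taken as pairs; with the replicate block 540 features and 12 RPS genes were called. Depth limits the ethanol values: a gene without reads could stand at up to 362 nCPM in ethanol replicate 1.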
